A study of Mus musculus with 122 samples.

Results

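Where transgenic CTCFL sat on chromatin was compared between cells that kept their own CTCF and cells in which it had been degraded. The members are CTCFL places. A place is a region in which FLAG ChIP-seq peaks of the CTCFL line, from any of 4 libraries, overlapped by at least 1 bp. Of 45487 places in all, 1816 (3.99%) were gained, with a peak in both libraries without CTCF and in neither library with it. Another 1321 (2.90%) were lost, with a peak in both libraries with CTCF and in neither without it. A further 19192 (42.2%) were kept, with a peak in all 4 libraries, and the other 23158 (50.9%) were mixed.

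The 4 libraries are part of a series of 122 samples from E14Tg2a mouse embryonic stem cells (mESCs). In every group used here both alleles of endogenous Ctcf carry an auxin-inducible degron with eGFP, and the cells express the ubiquitin ligase TIR1, so that indole-3-acetic acid (IAA, at 500 µM) leads to degradation of CTCF. The line also carries a doxycycline-inducible Ctcfl transgene at the Tigre locus, with a FLAG tag and mRuby2. D cells received doxycycline (Dox, at 1 µg/ml) alone, and ID cells received IAA and Dox, with 2 FLAG libraries each. U cells were untreated and I cells received IAA alone, and these were used here for RNA only. The FLAG antibody recovers only the transgenic protein, so endogenous CTCF was not mapped in these cells. The sample labels give 24 h of treatment for these libraries and the treatment protocol 2 days. Each transgenic line was chosen as a clone, and nothing says whether its replicates were separate cultures, so the spread between them may be technical.

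CTCF and CTCFL (also called BORIS) share a DNA-binding region of zinc fingers and differ in the N and C terminal regions around it. CTCF is present in all cell types and stops cohesin as it extrudes chromatin loops, whereas CTCFL is normally limited to male germ cells and is switched on in many cancers. Because the zinc fingers are alike, both proteins recognise similar DNA.

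To show what the DNA looked like where CTCFL was gained and where it was lost, the best 20-base match to the motif of these places is printed for the 3 strongest gained and the 3 strongest lost places, leaving out a lost place near Ube2d2a. The motif was found de novo in kept places at CTCF sites. Each stretch reads 5′ to 3′ on the strand given, from the mm10 (GRCm38) genome of RefSeq, and capitals mark the bases that equal the motif's most frequent base at positions of at least 1 bit. In order, the gained stretches lie upstream of Atxn10 (chr15:85328644-85328663, plus strand), in the promoter of Nmur1 (chr1:86389470-86389489, plus strand) and in intergenic DNA nearest to Hnrnpa3 (chr2:75588771-75588790, minus strand). The lost stretches lie nearest to Klhl5 (chr5:65175145-65175164, plus strand), Epha5 (chr5:84706304-84706323, minus strand) and in chr1:136652690-136652709 (minus strand).
gained 1: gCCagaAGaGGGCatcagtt
gained 2: gCCactAGaGGGCaacgctg
gained 3: aCCtctgGGtGGCgctgttc
lost 1: aaCactgGGtGGCttagctg
lost 2: caCaccAGaGGcCgctaggg
lost 3: tCCtgtAGGGGtCctaagtg
The 3 gained stretches scored 20.53, 18.84 and 13.55 bits, above the threshold of 10.56 bits for a match. The 3 lost stretches scored 1.343, 10.23 and 4.152 bits, and none of them reached it.

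Before these classes are compared, the libraries need to be set side by side, because they were unequal. On chromosomes 1 to 19 and X, D replicate 1 held 38928 peaks and D replicate 2 held 24033. ID replicates 1 and 2 held 31149 and 29660 peaks, so that the ID libraries lay between the D libraries. Of the peaks of D replicate 2, 95.8% overlapped a peak of D replicate 1, but only 57.9% of the peaks of D replicate 1 overlapped one of D replicate 2. In ID the same shares were 81.5% and 85.7%. The largest group of places after the kept ones was that with a peak in D replicate 1 alone, with 9097 places. The peak lists give no read numbers, so sequencing depth is unknown here, and a place without a peak may hold CTCFL below the peak caller's threshold. Without D replicate 1 the gained places numbered 5617, and without D replicate 2 they numbered 2075. Without ID replicate 1 or 2 they numbered 3644 or 4541. The lost places numbered 2006 and 10522 without D replicates 1 and 2, and 2324 and 2065 without ID replicates 1 and 2.

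**Figure D1:**
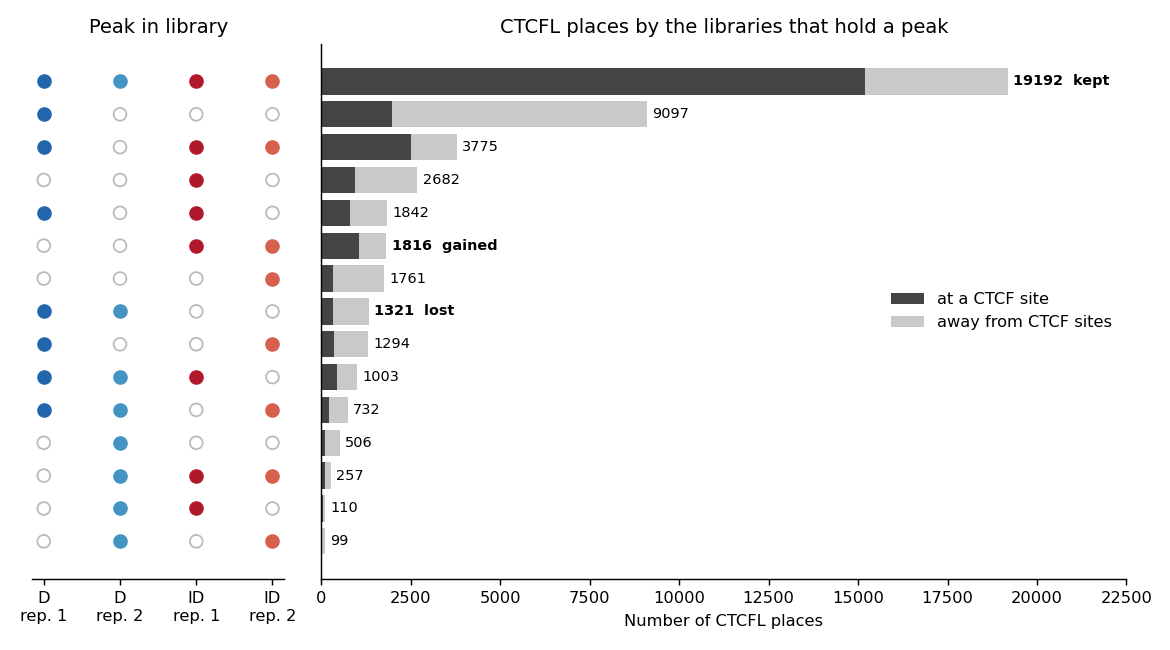
The bars give the number of CTCFL places (x axis) for each combination of the 4 libraries that held a peak, shown by filled circles on the left, with D in blue and ID in red. Dark grey is the part at CTCF sites and light grey the part away from them. The 19192 kept places are the largest group, places of D replicate 1 alone are next with 9097, and most gained places but few lost places are dark.

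The study asks how CTCFL binding depends on CTCF, and the first question here was whether the places gained were CTCF sites. A CTCF site is a region with a FLAG peak of transgenic CTCF in both D or both ID replicates of the matching CTCF line, and 38339 such regions were found. Of the gained places, 57.4% overlapped a CTCF site (1043 of 1816, Wilson 95% interval 55.1% to 59.7%). Of the lost places, 23.4% did (309 of 1321, interval 21.2% to 25.7%). Gained places therefore lay at CTCF sites more often than lost ones, and the intervals, which cover counting error only, did not overlap. Kept places were at CTCF sites more often than either, at 79.1% (15184 of 19192), and all places together stood at 53.6%. The order kept, gained, lost held without each library in turn, where the gained share ran from 38.9% to 63.6%, the lost share from 21.97% to 32.1% and the kept share from 77.1% to 78.6%. The lowest gained share, 38.9%, was that without ID replicate 1. A place away from CTCF sites could still hold a CTCF peak in a lone replicate. CTCF D replicates 1 and 2 had a peak at 31.2% and 10.1% of gained places away from CTCF sites, and CTCF ID replicates at 13.1% and 12.5%. At kept places away from CTCF sites the shares were 7.34% and 31.5% in CTCF D and 8.41% and 2.59% in CTCF ID.

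The share of each library's own peaks at CTCF sites did not separate the conditions. It was 57.0% and 69.9% in D replicates 1 and 2, and 68.3% and 67.8% in ID replicates 1 and 2. The ID values lay between those of D. The mean was 63.4% ± 9.17 (SD, n = 2) in D and 68.1% ± 0.352 (SD, n = 2) in ID, a difference of 4.63 percentage points for ID minus D (exact permutation test, two-sided, p = 1, where 2 against 2 libraries cannot go below 0.33). Without D replicate 1 the difference turned to -1.86 points, and without D replicate 2 it was 11.1 points.

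Strength was set beside the classes as well, read in ID for gained places and in D for lost ones. As the strength of a place, the lower -log10 q of its 2 peaks was taken. It had a median of 5.05 and a highest value of 25.2 in gained places, and a median of 4.16 and a highest value of 13.4 in lost places. The lowest gained place stood at 2.01, just inside the lowest value of the peak lists. A value of at least 10 was reached by 143 gained places, of which 137 were at CTCF sites, and by 6 lost places, of which 1 was at a CTCF site. Kept places that reached it in ID were mostly at CTCF sites too (11594 of 12775), as were those that reached it in D (9080 of 10408). All of the 50 strongest gained places were at CTCF sites (100%, Wilson interval 92.9% to 100%), as were 95 of the strongest 100 and 80.0% of the strongest 500. Among lost places 15 of the strongest 50, 28 of the strongest 100 and 22.6% of the strongest 500 were at CTCF sites. Even so, both classes were weak beside kept places: the median -log10 q of kept places was 17.9 and 11.2 in D and 20.4 and 16.9 in ID, against 6.36 and 5.82 for gained places in ID and 6.14 and 4.47 for lost places in D.

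**Figure D2:**
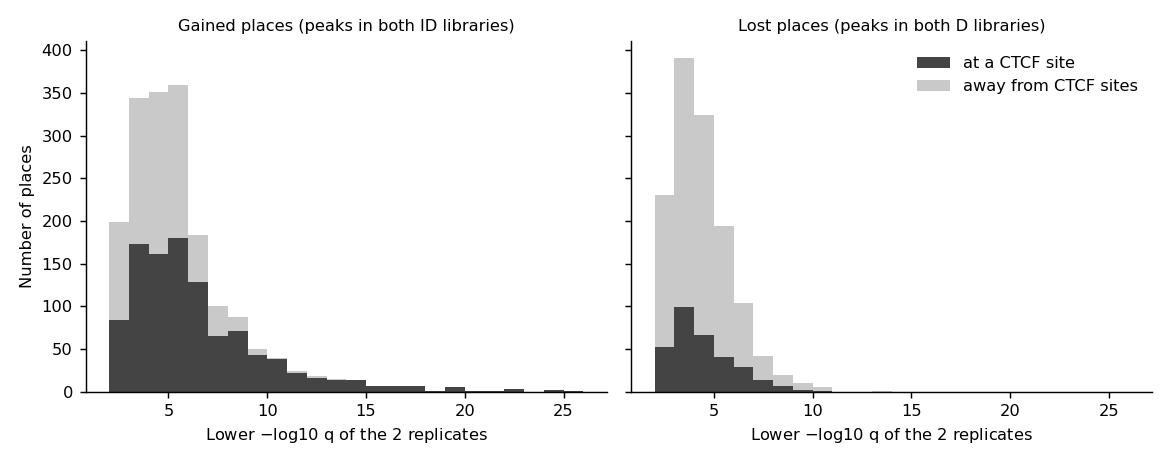
Histograms of gained (left) and lost (right) places by strength, the lower -log10 q of the 2 replicates that held the place (x axis, bins of 1). The y axis counts places, dark grey at CTCF sites and light grey away from them. Beyond a value of 10 the gained histogram is almost wholly dark (137 of 143), whereas the lost one holds 6 places.

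Seen from the CTCF sites, CTCFL was kept at 39.6% of the 38339 regions (15192), gained at 2.66% (1018) and lost at 0.780% (299). At 38.3% no CTCFL library had a peak. When CTCF sites were split into 4 equal groups by the strength of their CTCF peak, CTCFL was kept at 20.1%, 26.7%, 43.1% and 68.6% from the weakest to the strongest group. Gained places followed the same order apart from the lowest step, with 1.48%, 1.32%, 3.24% and 4.58%. Lost places ran the other way, with 1.16%, 0.949%, 0.845% and 0.167%. The CTCF regions under gained places were about as strong as those under kept ones, with a median -log10 q of 52.97 against 52.2, whereas those under lost places stood at 22.9 and all CTCF regions at 31.8. Of the lost places at CTCF sites, 93.5% and 94.8% had a peak in the CTCF D libraries and 72.5% and 56.6% in the CTCF ID libraries, whereas 95.01% and 93.96% of the gained ones had a peak in CTCF ID. CTCF sites with a gained place were thus stronger, and those with a lost place weaker, than the median CTCF site.

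The places gained without CTCF were also less often at promoters. A promoter place has its centre no more than 3 kb from an annotated transcription start. Of the gained places 21.3% (386, Wilson interval 19.4% to 23.2%) were at promoters, against 55.8% of the lost places (737, interval 53.1% to 58.4%), 41.7% of the kept and 39.5% of all places. Gained places were intergenic in 44.4% and intronic in 33.3%, whereas lost places were intergenic in 19.8% and intronic in 21.7%. Exons held 1.05% of gained and 2.73% of lost places. Median widths were 374 bp for gained, 446 bp for lost and 865 bp for kept places.

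The DNA under the classes differed as well. A motif match was sought on both strands within 150 bp of the summit, with the threshold at the 95th percentile of the best scores in windows 1 kb away. Gained places at CTCF sites held a match in 75.1% (interval 72.4% to 77.6%), close to the 80.0% of kept places at CTCF sites, from which the motif was learned. Lost places at CTCF sites held one in 52.8%. Away from CTCF sites the order turned, with a match in 7.89% of gained places (interval 6.19% to 10.01%), in 16.5% of lost places and in 29.4% of kept places. Windows 1 kb away from the same summits held a match in 3.10% to 5.75% in these 6 classes. The 773 gained places away from CTCF sites were also the poorest in G and C, with a median of 39.5%, against 46.2% for gained places at CTCF sites, 50.2% for kept places at CTCF sites and 55.5% both for kept and for lost places away from them. They held 1.66 CpG dinucleotides on average per window, against 12.4 in lost and 12.3 in kept places away from CTCF sites. Gained places thus fell into a part with the CTCF motif at CTCF sites and a part without it, poor in CpG, elsewhere.

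The motif itself was read from the matches of each class and is shown as its most frequent base per position, with capitals where that base was held by at least 70% of matches.
kept at CTCF sites: gCCAgcAGgGGGCgctagag
gained at CTCF sites: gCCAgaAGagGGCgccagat
kept away from CTCF sites: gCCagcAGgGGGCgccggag
lost at CTCF sites: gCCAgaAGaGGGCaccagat
lost away from CTCF sites: gCCagcAGgGGGCagcggag
The core was common to all classes, and the classes differed in how often positions held A or T. Counted from 1 at the left, A at position 4 was found in 92.8% of the 783 gained matches at CTCF sites, against 75.7% of the 12149 kept matches. A at position 6 stood at 44.6% against 27.4%, A at position 9 at 62.2% against 39.3%, and T at position 10 at 35.8% against 20.2%. The 163 lost matches at CTCF sites were near the gained ones in A at positions 6 (44.2%) and 9 (62.0%). They held A at position 4 in 85.9% and T at position 10 in 18.4%.

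The strongest gained places were intergenic or at promoters, and each was a CTCF site. The highest of all lay 7454 bp upstream of Atxn10, which encodes ataxin-10 (chr15:85328505-85329077), with a -log10 q of 29.8 and 25.2 in ID replicates 1 and 2 and no peak in D. At the promoter of Nmur1, a receptor for neuromedin U, the values were 28.1 and 24.8 (chr1:86389118-86389848). The place nearest to Hnrnpa3, which encodes an RNA-binding protein, reached 29.5 and 24.4 (chr2:75588527-75589009). It is the last of the 3 gained sequences printed above. The place nearest to Msl1, a subunit of a histone acetyltransferase complex, reached 26.5 and 22.7 without a motif match, and that nearest to Cdkn2aip 22.5 and 25.6.

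Of the 10 strongest gained promoters of protein-coding genes all were at CTCF sites, and all but that of Gpr35 held a motif match. After Nmur1 they belonged to Ess2 (19.2 and 20.1), Glod5 (21.0 and 17.7), Asgr1 (16.6 and 14.8), Selenon (21.997 and 14.6), Gpr35 (13.8 and 16.3), Ppp6r2 (17.1 and 13.7), Xirp1 (20.7 and 13.6), Ift46 (15.2 and 13.3) and Bdh2 (13.9 and 13.1), as -log10 q in ID replicates 1 and 2. None had a peak in D. The genes had no single role in common: Asgr1 encodes a subunit of the hepatic asialoglycoprotein receptor, Gpr35 a G protein-coupled receptor, Selenon a selenoprotein of muscle, Xirp1 an actin-binding protein of muscle and Ift46 a protein of intraflagellar transport in cilia.

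The lost places, read in D, had lower values, and the strongest of their promoters were mostly not CTCF sites. The strongest lost place was intergenic, nearest to Klhl5, with 20.7 and 13.4 in D replicates 1 and 2 and no peak in ID (chr5:65174833-65175652). The 10 strongest lost promoters were those of Sh2b3 (12.6 and 9.99), Obsl1 (10.1 and 9.72), Hmgxb4 (9.67 and 10.5), Syk (9.43 and 10.5), Syngr3 (12.7 and 9.20), Adgrb2 (9.48 and 8.98), Lhx9 (12.1 and 8.81), Cep162 (12.6 and 8.66), Tnnt1 (8.61 and 8.69) and Cadm2 (11.9 and 8.44). Only the place at Adgrb2, an adhesion G protein-coupled receptor, overlapped a CTCF site, and only that at Cadm2, a cell adhesion molecule, held a motif match. Sh2b3 encodes an adaptor that restrains cytokine signalling and Syk a tyrosine kinase of immune receptors.

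Libraries that had no part in drawing the classes were then examined at the same places. CLC carries the CTCFL zinc fingers between the CTCF ends, and LCL the CTCF zinc fingers between the CTCFL ends. CLL and LLC carry the CTCFL zinc fingers with only the N terminal (CLL) or only the C terminal region (LLC) of CTCF. The labels give 48 h of treatment for the CLL and LLC libraries but 24 h for those of CLC and LCL. At gained places that were CTCF sites, CLC had a peak in 6.52% and 7.38% of places in its D replicates and in 50.8% and 52.4% in its ID replicates. The conditions did not overlap, and the mean difference was 44.7 percentage points (exact permutation test, two-sided, p = 0.33, the smallest that 2 against 2 allows). CLC lists were longer in ID (23899 and 21220 peaks) than in D (9867 and 13583), and at kept places that were CTCF sites CLC also went from 31.9% and 47.5% to 88.9% and 87.8%. The CLL values did not overlap either, with 3.93% and 9.40% in D and 16.2% and 52.3% in ID at gained CTCF sites (exact p = 0.33). Those of LLC did, with 6.52% and 9.20% in D and 8.34% and 8.63% in ID (exact p = 1). LCL had a peak in most of these places in both conditions, 70.6% and 84.7% in D and 85.1% and 84.9% in ID.

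The 773 gained places away from CTCF sites gave other values in the same libraries. There CLC had a peak in 46.1% and 48.9% in D and in 13.6% and 20.2% in ID, a mean difference of -30.6 points (exact permutation test, p = 0.33), opposite in direction to the CTCF sites. LCL went the same way, from 17.9% and 26% to 6.60% and 5.56% (-15.8 points, exact p = 0.33). LLC had a peak in 34.5% and 74.4% in D and in 61.1% and 64.2% in ID, although its lists were short (3731, 11450, 9441 and 12519 peaks), and although it had a peak in only 6.51% to 9.33% of kept places away from CTCF sites. CLL had one in 16.0% and 64.4% in D and 62.6% and 69.7% in ID. Of the 16 libraries of the 4 chimeras, a gained place away from CTCF sites had a peak in a median of 7, and 39.97% had one in at least 8. Gained places at CTCF sites had a median of 5, with 12.2% in at least 8, and lost places away from CTCF sites a median of 1, with 48.2% in none.

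The RNase experiment of the series added 4 libraries of CTCFL in ID cells. Their labels give 48 h of treatment, against 24 h for the libraries that define the places. In its 2 mock-treated libraries (8918 and 14347 peaks) a peak was found at 42.3% and 56.1% of the gained places away from CTCF sites, but at 7.38% and 9.30% of those at CTCF sites. The shares were 19.2% and 39.4% at kept and 2.498% and 3.33% at lost places. In the RNase-treated libraries (9204 and 2526 peaks) they were 16.6% and 2.33% at gained places away from CTCF sites. Gained places away from CTCF sites therefore recurred in libraries of other fusion proteins and in D as well as ID. The source of the signal at them was not tested.

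RAD21, the cohesin subunit that marks where cohesin sits, was mapped in the same line. Replicate 1 had a RAD21 peak at 64.6% of gained places at CTCF sites in D and at 20.9% in ID. At kept places at CTCF sites it went from 48.3% to 8.88%. At gained places away from CTCF sites the shares were closer, 43.3% in D and 34.02% in ID, and in the CTCF line the shares there were 49.8% and 47.2% in replicate 1. At kept places away from CTCF sites they were 7.98% and 6.46% in the CTCFL line. At lost places they were 6.59% and 1.67%. The RAD21 lists of the CTCFL line held 20467 peaks in D and 5821 in ID in replicate 1 but 238 and 181 in replicate 2, so that these shares rest on replicate 1 alone and were not tested. In replicate 1 of the CTCFL line, gained places thus held RAD21 more often than kept or lost ones while CTCF was present. RAD21 replicate 2 of the CTCF line held 3756 peaks in D and 784 in ID. It had one at 0.647% and 0% of gained places away from CTCF sites. In D it had one at 8.37% of all gained places and 10.3% of all kept ones, the other order. At CTCF sites alone it had one in D at 14.1% of gained and 12.9% of kept places.

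**Figure D3:**
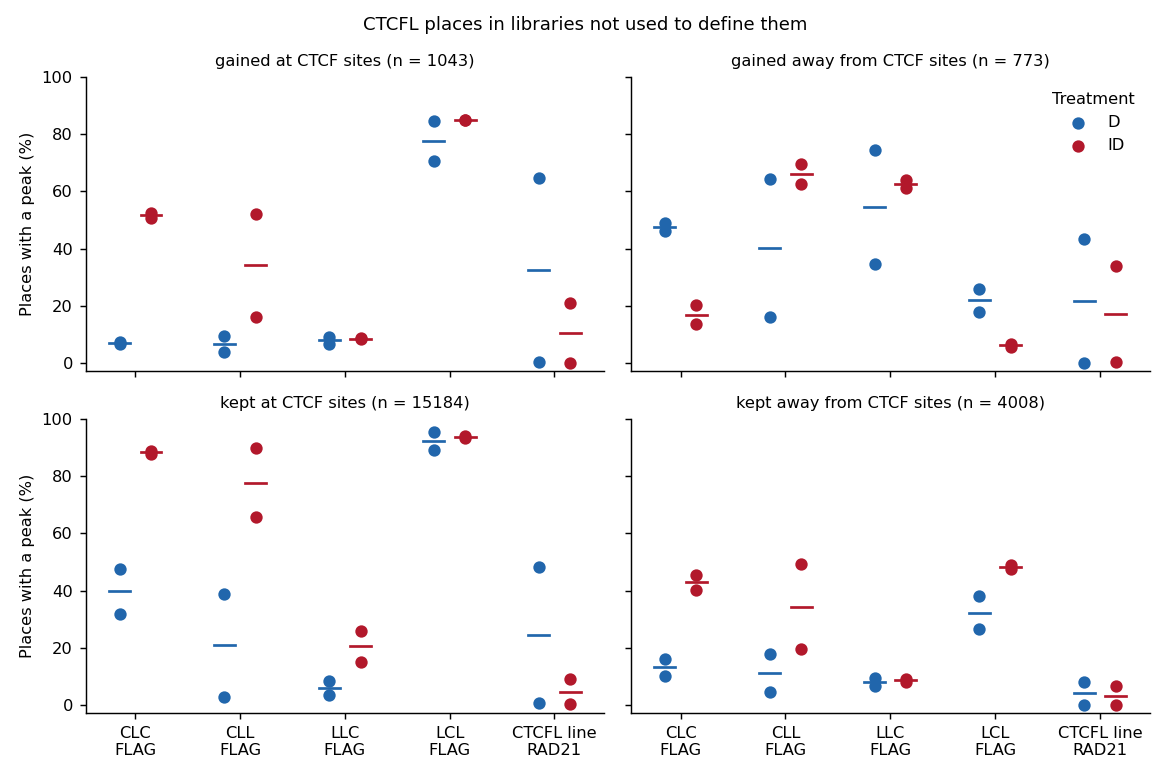
Percent of CTCFL places (y axis) with a peak in the FLAG libraries of CLC, CLL, LLC and LCL and in the RAD21 libraries of the CTCFL line (x axis), in D (blue) and ID (red). Points are libraries and lines are means of 2, and each panel is a class of places. At gained CTCF sites the CLC points are at 6.52% and 7.38% in D and 50.8% and 52.4% in ID, and at gained places away from them the D points are the higher ones.

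The 19192 kept places allowed the height of the same peak to be compared. The fold enrichment over the local background had a median of 5.63 and 5.57 in D and of 7.25 and 5.89 in ID. After centring each library on its median kept place, 297 places (1.55%) changed at an adjusted p under 0.05 (limma, Benjamini-Hochberg): 134 rose (0.698%) and 163 fell (0.849%). All 134 that rose were at CTCF sites, against 86 of those that fell. Of the 4008 kept places away from CTCF sites, 77 fell and 0 rose with limma, where 25 had a higher and 769 a lower value at an unadjusted p under 0.05. The median log2 change was 0.03 at CTCF sites and -0.20 away from them. Without centring 67 places rose and 0 fell, again all at CTCF sites. The count was 0 without either D replicate, 12 without ID replicate 1 and 88 without ID replicate 2 (limma, where the lone library is taken to vary like the others), and 2733, 2727, 1484 and 2264 places then had an unadjusted p under 0.05.

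Within each library, which takes out any scaling, kept places at CTCF sites stood above the others in median log2 height by 0.235 and 0.269 in D and by 0.573 and 0.453 in ID. Both ID libraries lay above both D libraries. The means were 0.252 ± 0.0240 and 0.513 ± 0.0848 (SD, n = 2 each), a difference of 0.261 (exact permutation test, two-sided, p = 0.33, the smallest possible). Replicate 1 of both conditions and replicate 2 of both were each listed on a sequencing lane of their own, and within each lane the ID value was the higher one. The share of a library's peaks at CTCF sites, given above, was higher in ID on the first lane and lower on the other.

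**Figure D4:**
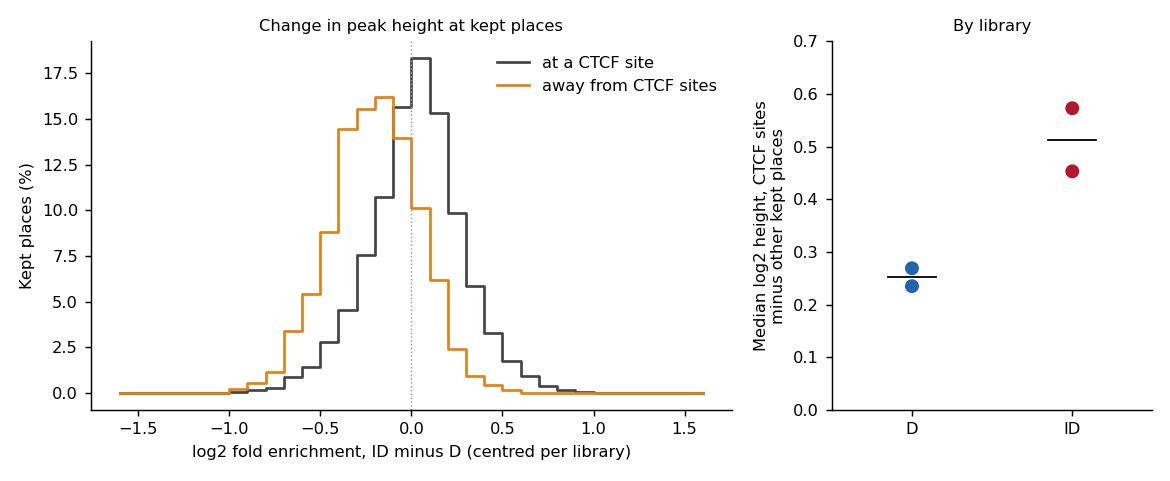
Left, the share of kept places (y axis, percent) by their change in log2 fold enrichment from D to ID (x axis, bins of 0.1), at CTCF sites in dark grey and away from them in orange. Right, for each library, the median log2 height of kept places at CTCF sites minus that of the others, with lines for the mean of 2. The orange curve lies to the left (median -0.20 against 0.03), and both ID points (0.573 and 0.453) lie above both D points.

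The kept places with the largest rise were all CTCF sites with a motif match. The place nearest to Stc2, which encodes the secreted glycoprotein stanniocalcin 2, went from a -log10 q of 4.75 and 2.62 in D to 29.02 and 26.2 in ID, a log2 change in height of 1.10 ± 0.208 (SE, limma adjusted p = 0.00139). The place nearest to Pllp went from 9.98 and 3.27 to 50.0 and 47.7 (log2 change 1.10 ± 0.181, adjusted p = 0.000219). In the Hoxc cluster of developmental transcription factors, a place in an intron of Hoxc5 (chr15:102987064-102988072) went from 5.18 and 3.76 to 38.1 and 30.3 (1.04 ± 0.203). Places nearest to Arhgap23 and Usp44 rose by 1.02 and 1.00. These 5 places were weak in both D libraries and strong in both ID libraries.

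The largest falls lay in introns of Dlg2 (-1.14), Gcnt4 (-1.08) and Lrba (-1.06) and nearest to Fam19a2 (-1.01) and Rapgef5 (-1.0). The place in Lrba, the only one of the 5 away from CTCF sites, went from 22.7 and 16.2 to 3.56 and 5.82 in -log10 q. All 5 rises and 5 falls lost their call without either D replicate, and the 5 falls also without centring. The RNA of Lrba fell as well, from a mean of 3451 in D to 429 in ID, a log2 change of -3.0, and that of Rapgef5 fell from 1385 to 107 (-3.68). In I against U, where no CTCFL was induced, their log2 values were -2.13 and -2.32.

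For the genes at these places, RNA-seq of the same line was used, with 3 libraries each of U, I and D and 2 of ID. The depth was 18820806 to 43154741 recovered reads, but 6847072 in D replicate 3. The mESC markers were present: Pou5f1 averaged 15331 normalised counts in D and 13914 in ID, and Nanog 19053 and 18315. Of the 8 markers 2 fell, Esrrb (16091 to 6249) and Tfcp2l1 (17359 to 5881), and their summed level was 123764 to 131300 in D and 86575 to 92535 in ID. Of 16 markers of other cell types 14 could be tested and 1 fell, the neural gene Sox1 (162 to 56.4). Their summed level was 4678 to 5236 in D and 5461 to 5586 in ID, with Elf5 at 0 in ID. The part of these shifts in the results was not tested, and in bulk RNA fewer cells of a type cannot be told apart from less RNA per cell. Ctcfl itself averaged 208 in U, 200 in I, 8244 ± 1005 (SD, n = 3) in D and 5514 ± 83.0 (SD, n = 2) in ID. Its RNA was thus lower in ID than in D by 0.57 on the log2 scale (limma adjusted p = 0.000283). Reads of the transgene and of the endogenous gene were not told apart.

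Whether genes at gained and lost places changed their RNA was asked in ID against D. Of 16840 genes tested, 2303 (13.7%) were called at an adjusted p under 0.01 and a log2 change above 1 (limma), 762 up (4.52%) and 1541 down (9.15%). Of 447 genes with a gained place at the promoter, 225 passed the filter on low values, and 14 of these rose (6.22%) and 18 fell. Their called share, 14.2%, was near that of all genes. The median log2 change was 0.22, against 0.11 over all genes. In I against U, without induced CTCFL, the same medians were 0.15 and 0.04. Of 940 genes with a lost place at the promoter, 688 were tested, 25 rose (3.63%) and 102 fell (14.8%), with a median of 0.03. Genes with a kept place away from CTCF sites at the promoter were close to this, as 303 of 2335 fell (12.98%), with a median of 0.03. With a kept place at a CTCF site there, 352 of 4094 fell (8.60%). The differences between these shares were not tested. In I against U, where 1613 of all genes tested were called (9.58%), 622 up (3.69%) and 991 down (5.88%), the same 688 genes already had 18 that rose and 61 that fell (8.87%), without any induced CTCFL. Among the 225 genes with a gained place, 15 rose and 9 fell in that comparison. Many of these genes had other places at the same promoter. With a gained place and no other, 73 genes were tested, of which 7 rose and 2 fell, and with a lost place and no other 296 were tested, of which 15 rose and 34 fell.

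Whether the response to IAA differed when CTCFL was induced was tested directly by the interaction, ID minus D against I minus U. It called 457 genes (2.71%), 180 up (1.07%) and 277 down (1.64%). Genes with a kept place at a CTCF site at the promoter numbered 4094 among those tested, and 127 of them were called up (3.10%) and 72 down (1.76%). Of the 6175 genes without any place at the promoter, 24 were called up (0.389%) and 64 down. Genes with gained places had 5 up and 4 down of 225, and genes with lost places 2 up and 15 down of 688. The upward calls thus lay more often at promoters with kept CTCF sites (3.10%) than at promoters overall (1.07%), and this difference was not tested.

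Among the genes with a gained place at the promoter, Gpr35 showed the largest rise. Its values were 0.99, 5.91 and 15.0 normalised counts in D and 75.4 and 78.4 in ID, so that the groups did not overlap (log2 change 3.69 ± 0.802 SE, limma adjusted p = 0.000623). In I against U it stood at -0.32, and the interaction, 4.01, missed the threshold (adjusted p = 0.0112). Asgr1 had 11.8, 8.27 and 7.49 in D and 54.6 and 50.3 in ID, a log2 change of 2.41 (adjusted p = 0.000827), with no other place at its promoter. Both promoters are among the 10 strongest gained ones. Without ID replicate 1 or 2, the adjusted p was 0.011 and 0.0122 for Gpr35 and 0.0146 and 0.0104 for Asgr1 (limma), just over the threshold. Tbx3os2 (a long noncoding RNA next to Tbx3, 2.11), Upk2 (a protein of the bladder lining, 2.02) and Rab44 (a small GTPase, 1.91) rose as well, although Rab44 lost its call in 9 of 13 alternatives, edgeR and DESeq2 among them, and Upk2 without ID replicate 2. Of the remaining strongest gained promoters that were tested, Glod5 had a log2 value of 1.59 and Bdh2 of 1.28, with adjusted p values over 0.01, and Selenon and Ift46 had 0.75 and 0.73, under the size limit. Ppp6r2 had 0.08 (limma adjusted p = 0.661). In I against U, without induced CTCFL, Asgr1 had a log2 value of 0.999, Tbx3os2 of 1.09, Upk2 of 0.735 and Rab44 of 0.727. Selenon had 0.69, Glod5 0.61, Ppp6r2 0.12 and Ift46 0.10 there, and Bdh2 had -0.82. The interaction called none of Asgr1, Tbx3os2, Upk2 and Rab44.

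Among the falls at gained promoters was that of Robo1, a guidance receptor for axons, from 1408, 1746 and 1888 to 181 and 124 (log2 change -3.47). Pid1 (-2.54) and the cadherin Cdh2 (-2.46) fell as well. Their D and ID values did not overlap. Robo1, Pid1 and Cdh2 were lower in I than in U too, with log2 values of -3.22, -1.89 and -2.34.

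All 10 largest changes at lost promoters were falls. Ryr2, the calcium release channel of heart muscle, had 355, 279 and 434 in D and 8.74 and 8.04 in ID (log2 change -5.23). Dach1, a transcriptional cofactor, had 28.6, 20.1 and 22.5 in D and was listed at 0 in both ID libraries. Tenm4, a transmembrane protein of neurons, fell by 4.41, followed by Chsy3 (-3.89), Fam19a4 (-3.84), Clstn2 (-3.64), Dennd1b (-3.63), Zfp385b (-3.53), Dennd1a (-3.40) and Camk2d (-3.36). The same genes were lower in I than in U, with log2 values from -2.12 for Zfp385b to -4.48 for Fam19a4. Dach1 lost its call without either ID replicate, Clstn2 and Fam19a4 without ID replicate 1, and Chsy3 in 5 of 12 alternatives. The interaction called Dennd1b alone of them (-1.26, adjusted p = 0.000339). Sh2b3, which had the strongest lost promoter, rose from 336 to 768 (1.20).

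**Figure D5:**
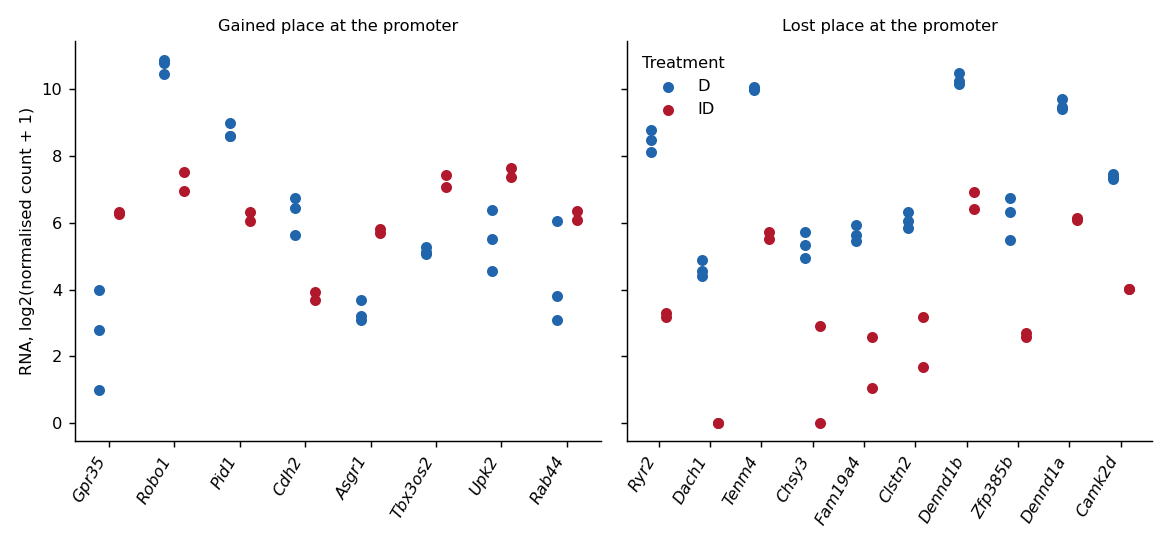
RNA of genes with large called changes among those with a gained (left) or lost (right) place at the promoter. The y axis is log2(normalised count + 1), and points are libraries, D in blue (3) and ID in red (2). On the left 5 of the genes shown rose and 3 fell, and on the right all 10 fell, with Dach1 at 0 in ID.

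Few genes of the listed groups had a gained or lost place at the promoter, as was so over all genes. Of 53843 annotated genes of all types, 447 had a gained, 940 a lost and 9082 a kept place there. In RNA, 4.52% of all genes tested rose and 9.15% fell. The counts in the lists were not tested against these shares, and low counts are therefore no trait of the lists. Of 17 germline and cancer-testis genes, a class that CTCFL is known to switch on, 7 had a kept place at the promoter, none a gained or lost one, and 9 had none at all. Of the 17, 15 were tested and 1 rose, Tex101 (316 to 855, log2 change 1.44), which had no place. Its log2 value in I against U, without induced CTCFL, was 1.60. At Stra8, a gene of meiotic entry, a kept place reached 100.0 and 122 in D and 147 and 115 in ID. At Prss50 and at Rec8, the meiotic cohesin subunit, it reached 75.4 and 76.9 against 111 and 98.9, and 38.9 and 50.1 against 46.2 and 45.3. Their places changed little in height, with log2 values of 0.01, 0.22 and -0.03 that did not pass the test.

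Of 12 genes of the Notch and TGF-beta pathways, 10 had a kept place and Klf10 a lost one. Jag1, a Notch ligand, was the only one called, and fell from 728 to 264 (log2 change -1.46, and -0.51 in I against U). Of 16 imprinted genes 5 had a kept place and none a gained or lost one, and Grb10, a growth-restraining adaptor, fell by 1.38. At the Igf2 and H19 locus, where CTCF at the control region keeps enhancers from Igf2, the 3 places found were mixed. Among 57 clustered protocadherins, neuronal adhesion genes whose promoters bind CTCF, 14 had a kept place, 2 a gained one (Pcdhb8 and Pcdhb17) and 3 a lost one (Pcdha6, Pcdhb10 and Pcdhb11). Of 10 tested Pcdhga11 and Pcdhgb2 fell, and Pcdhgb2 lost its call in 4 of 11 alternatives. Their log2 values in I against U were -4.07 and -3.07.

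Among 39 Hox genes 9 had a kept place, Hoxb6 a gained one (4.55 and 5.11) and Hoxc13 and Hoxd9 a lost one (7.85 and 5.19, 4.71 and 4.71). Of 30 tested 3 rose, Hoxa7, Hoxb7 and Hoxc12, by 1.58, 1.19 and 2.89, of which Hoxb7 lost its call without either ID replicate and Hoxc12 in 5 of 12 alternatives. Of 11 genes of cohesin and its loaders, 7 had a kept place, and the loader Nipbl and the regulator Pds5a also had a lost one (7.92 and 6.83, 7.96 and 4.47). Stag1 (6460 to 1999), Stag2 (3999 to 1332) and Nipbl (5665 to 2020) fell, by 1.69, 1.59 and 1.49 on the log2 scale. In I against U the log2 values of these 3 genes were -0.54, -0.55 and -0.63. Both mESC genes that fell and Sox2 showed no single pattern: Esrrb had a mixed place, Tfcp2l1 a kept one, and Sox2 a lost one (5.55 and 10.1 in D) beside a kept one.

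Boundaries of chromatin domains of the same line, given as 1 list per condition and caller, were set beside the places. Of gained places at CTCF sites, 33.5% lay within 40 kb of a D boundary and 22.7% of an ID boundary in the lists of the hicratio method. Kept places at CTCF sites stood at 28.2% and 20.1%, and gained places away from CTCF sites at 15.9% and 11.5%. Boundaries were counted as the start and the end of each domain, so neighbouring domains each add their own. The ID list also held fewer of these edges, 5048 from 2524 domains against 5942 from 2971 in D. In the lists of the crane method the same classes lay between 17.1% and 20.4% in D and ID, without this order. These lists have no replicates and were not tested, and the Hi-C protocol gives 4 days of treatment.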

How the data were processed

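FLAG ChIP-seq peak lists of the CTCFL line (D and ID, 2 libraries each) were compared, with peak lists of the CTCF, CLC, LCL, CLL and LLC lines and of RAD21, domain lists and RNA-seq of the CTCFL line as further readouts. The places, lists and tests were chosen with earlier results of these data known.

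Per the labels and the study's methods, the authors trimmed reads with Trim Galore 0.4.4, aligned them with Bowtie2 to GRCm38/mm10, kept unique reads without duplicates and called peaks per replicate with MACS. The control library and the depth are not given in the sources used here. The deposited values are, per peak, the fold enrichment over local background (a ratio), and the -log10 q, which the authors computed with MACS; no deposited FLAG peak of the CTCFL line has a -log10 q below 2.00. The deposited RNA signal values are counts per gene, scaled by the authors with a size factor for each library. Whole reads were recovered from them for the depths and the count tests (100% of values of up to 500 reads were whole within 0.02 of a read). In the RNA table, 27 columns of samples of other lines were not used, nor were the deposited domain lists of other lines. Hi-C domain lists give positions as deposited, without a score that was used.

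Peaks of chromosomes 1 to 19 and X were merged where they overlapped by at least 1 bp. Start sites came from GENCODE vM21 (53843 genes), of which symbols matched 88.65% of the 52459 rows of the RNA table. Shares have Wilson 95% intervals, which cover counting error only. Heights (log2 fold enrichment) and RNA (log2(value + 1), mean of at least 10) were fitted with limma 3.58.1 in R 4.3.3, with trend and Benjamini-Hochberg adjustment, and checked on simulated data. RNA was called at an adjusted p under 0.01 and a log2 change above 1 in either direction, with U, I, D and ID in 1 fit. Single values per library were compared with exact permutation tests, two-sided. The motif (20 positions) was grown from the commonest 10-base word over 10 rounds, with the 95th percentile of windows 1000 bp away as threshold.

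Named genes were the 10 strongest gained and 10 strongest lost promoters, the 5 strongest gained places, at most 10 called genes per class, the 5 largest rises and falls at kept places, and the fixed lists; some are not reported here. Apart from the sequencing lanes of the FLAG libraries given above, the labels did not pair same-numbered replicates, and the main fits had no replicate term. The correlation of their deviations was -0.060 for heights, where 2 libraries per condition force both pairs to the same value, so it says little about pairing. For RNA it lay between -0.0645 and 0.0648 over 15 pairs. Alternatives covered thresholds, overlaps, windows, scaling, a replicate block, the count tests of edgeR 4.0.16 and DESeq2 1.42.0, and the omission of each library. A motif window of 50 bp was added after seeing the data. Python 3.11.15, pandas 2.3.3, scipy 1.17.1 and pysam 0.24.0 were used.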

Additional observations from a re-analysis of the deposited data

Results flagged for a closer look

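At gained places away from CTCF sites, CLC and LCL went in the other direction from CLC at gained places at CTCF sites when CTCF was degraded, with every library of each group on its own side. The difference of ID minus D was -30.6 percentage points for CLC and -15.8 for LCL away from CTCF sites, against 44.7 for CLC at them. The difference between these responses was not tested, and no cause was tested.

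The response of RNA to IAA differed between cells with and without induced CTCFL at 457 of 16840 genes (interaction, limma, adjusted p under 0.01 and a log2 change above 1).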

How the results depend on the processing

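Values are given as gained count and percent at CTCF sites, then lost, then the percent of kept places at CTCF sites, where they moved. With peaks of a -log10 q of at least 5, the gained share was 69.2%, the lost places numbered 864 with 29.7%, and the kept share was 84.0%. With the top 20000 peaks of each library the shares were 86.1%, 37.0% and 87.1%. With a peak set per condition, 5844 places were gained (62.8%) and 3101 lost (30.8%), and with an overlap of 66% of both peaks 9241 (61.9%) and 6438 (46.5%), with 83.0% of kept places. With summits within 150 bp, 60.1% of gained places and 38.4% of 2035 lost places were at CTCF sites. With CTCF sites of ID alone the shares were 53.7%, 13.1% and 70.4%, with those of D alone 54.6% gained and 78.0% kept, and with a CTCF -log10 q of at least 20 they were 48.3%, 12.8% and 66.1%. Promoter shares of gained, lost and kept places were 7.38%, 46.4% and 27.9% within 1 kb, and 12.9%, 50.3% and 34.6% with starts of protein-coding genes. In each setting for places and CTCF sites the gained share at CTCF sites stayed above the lost share, and in both promoter settings the lost share at promoters was above the gained. Leaving out each library gave 2075 to 5617 gained and 2006 to 10522 lost places, 19465 to 22969 kept places, and shares at CTCF sites of 38.9% to 63.6%, 21.97% to 32.1% and 77.1% to 78.6%. The difference in the library share ran from -1.86 (reversed without D replicate 1) to 11.1.

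Calls of height at kept places numbered 67 without centring, 93 after quantile normalization, 1988 on log2 of the -log10 q, 100 above the median height and 0 to 88 with a library left out. The replicate block gave 231. The height difference between CTCF sites and other places lay between 0.201 and 0.321 with a library left out, in each case higher in ID. Calls of RNA numbered 1935 to 2485 under all alternatives, with 2153 under the replicate block, 2310 with edgeR and 2485 with DESeq2, and the interaction 356 to 471, with 409 under the block. The interaction needs all 4 groups, so a fit on the groups of the contrast gave nothing new. Rab44 lost its call under the block. With a motif window of 50 bp, a match was found in 39.8% of gained places at CTCF sites and 5.30% of those away from them. The causes of these shifts were not tested. Sequencing depth behind the peaks is unknown, and gained and lost are set by calls of 2 libraries each.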

Other observations

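The 5 strongest gained places away from CTCF sites, chosen after their values were seen, lay in an intron of Vwa5b1 (-log10 q of 13.7 and 14.1 in the ID replicates) and in intergenic DNA nearest to Zfp217 (12.7 and 14.2), Col5a1 (12.9 and 12.4), Kl (14.4 and 11.3) and Gm525 (12.5 and 11.2). The last 3 held a motif match, whereas 7.89% of all gained places away from CTCF sites did. All 5 had a FLAG peak of transgenic CTCF in some library, but not in both replicates of either condition.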
